A study of Mus musculus with 38 samples.

Results

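The comparison described here set 4 mouse gut RNA sequencing libraries labelled black rice against 4 labelled control, which are 8 of the 38 libraries of a study of mice with colorectal cancer. The 8 were taken as the libraries titled B1 to B4 and C1 to C4, and they have a count table to themselves whose name carries the letters FMT. These letters are a common abbreviation of faecal microbiota transplantation, but the labels do not spell them out. The labels give both groups the tissue intestinal tract and differ only in the treatment, black rice or control. They name no strain, genotype, sex, age, cancer model, time point, donor or recipient, and they do not say whether these mice ate black rice themselves. Nothing in them states that the 4 libraries of a group came from separate animals. A p-value here therefore sets the group difference against the spread between these libraries, which may be technical. The question implied by the labels is which genes of the gut differ in RNA level between the black rice and the control group.

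Black rice is a pigmented rice whose bran is rich in anthocyanins, and much of what is eaten of these pigments is handled by bacteria of the large bowel. The gut wall senses microbes partly through interferons, signalling proteins that switch on a broad set of antiviral and antibacterial genes through transcription factors that include STAT2 and IRF9. The wall is layered: an epithelium lines the lumen, muscle with an embedded enteric nervous system surrounds it, and a thin mesothelium with attached fat covers the outside. A bulk library mixes all these layers, so fewer cells of a type and less RNA per cell cannot be told apart in any result below.

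The libraries held between 66610853 and 91051239 counts, and mitochondrial genes took 8.23% to 9.96% of them. Levels are given in CPM, the counts of a gene as a share of its library, scaled by the trimmed mean of M values (TMM), which corrects for differences in library composition. Muc2, the main mucin of colon goblet cells, was abundant, at 6610 to 14300 CPM. Of the 8 Paneth cell markers, which define small bowel crypts, the 6 defensins were at or near 0, the highest being 0.0132 CPM. The other 2, Lyz1 and Mmp7, had 1.29 to 4.98 and 0.537 to 2.1 CPM, and the list summed to 1.89 to 7.09 CPM. The distal gut gene Hoxb13 varied from 0.23 CPM in black rice 1 and 0.461 CPM in control 4 to 23 CPM in control 3, with 2.36 CPM in black rice 2. The mean log2 level of the listed small intestinal enterocyte genes was 3.29 and 3.43 in black rice 1 and 2 and 3.27 in control 4. It was 2.39 to 2.57 in the other libraries. Sis, a member, had 20.4, 12.7 and 23.2 CPM in those libraries and 0.529 CPM or less in the others. The libraries may thus not match in position along the bowel, unevenly between the groups, and this was not tested. Control 4 also stood apart on the leading principal component, which carried 44.9% of the variance, and had the lowest summed smooth muscle markers. All 8 libraries had Y-linked transcripts and Xist at or under 0.415 CPM, the pattern of male tissue.

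No gene passed the test. Among 20831 genes, edgeR's quasi-likelihood test with Benjamini-Hochberg adjustment called 0 higher and 0 lower in black rice at an adjusted p under 0.05, or 0% each way. At an unadjusted p under 0.05 there were 859 genes on the higher side (4.12%) and 794 on the lower side (3.81%) which is 7.94% of genes in either direction, and single genes among them are given below as values, not as changes. For 557 genes (2.67%) all 4 black rice libraries lay above all 4 controls, and for 587 (2.82%) all lay below. Other tools drew the line elsewhere: DESeq2 called 77 higher (0.356%) and 42 lower (0.194%) of the 21600 genes it gave an adjusted p, and limma-voom called 1 of each (0.0048% each), Pkhd1l1 and Ifi27l2a. The median log2 difference of all genes tested was 0.01. In the lists below, "at an unadjusted p under 0.05" and "not overlapping" are to be read against these background shares.

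The lower side was led by interferon-responsive genes. Ifi27l2a, an interferon-inducible gene of the ISG12 family, had 25.4, 25.3, 20.6 and 17.6 CPM in the black rice libraries and 79.6, 191, 81.5 and 71.2 CPM in the controls. Every control was above every black rice library, and control 2 stood well above the other controls. The log2 difference, black rice minus control, was -2.25 with a standard error (SE) of 0.32, and the edgeR adjusted p was 0.34. DESeq2 gave an adjusted p of 2.3e-08 for it. Without control 2, edgeR called this gene and no other, with a log2 difference of -1.79 and an adjusted p of 0.0084. Rtp4, an interferon-induced chaperone that also restrains virus replication, had 111, 117, 127 and 118 CPM against 170, 187, 156 and 155 CPM, a log2 difference of -0.50 (SE 0.10, edgeR adjusted p 0.44). Ms4a4c, a membrane protein gene of immune cells, was low in both groups, at 0.452 to 0.788 CPM against 1.38 to 2.92 CPM (log2 difference -1.78, SE 0.29, edgeR adjusted p 0.40).

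Many interferon genes carry in their promoter an interferon-stimulated response element, the site that complexes of STAT2 and IRF9 bind. The letters GAAA, any 2 bases and GAAA again were searched on both strands in the 250 bases before and 50 bases after each RefSeq start (GRCm38.p6, another build than the counts), and 3.99% of 27025 genes held them. Of the 24 type I interferon genes listed for this work, 18 had a promoter in the table and 11 of these held the letters. For the interferon gamma list the count was 9 of 16, for the Schlafen family 3 of 7 and for the p200 family 8 of 10. The stretches below are shown because these genes were lower in all 4 black rice libraries than in any control, and the capitals mark the matches, overlapping ones run together. They run from chr5:120907526-120907625 (minus strand) for Oas1a, chr10:128270248-128270347 (plus) for Stat2, chr5:92349040-92349139 (minus) for Cxcl10, chr11:83020811-83020910 (minus) for Slfn8 and chr1:173599291-173599390 (minus) for Ifi213, each in its gene's 5′ to 3′ direction. A match in these letters describes the sequence and shows neither binding nor a cause.
Oas1a: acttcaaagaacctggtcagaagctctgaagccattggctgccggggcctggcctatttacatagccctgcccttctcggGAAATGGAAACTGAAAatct
Stat2: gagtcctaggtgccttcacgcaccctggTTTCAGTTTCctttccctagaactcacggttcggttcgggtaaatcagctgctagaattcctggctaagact
Cxcl10: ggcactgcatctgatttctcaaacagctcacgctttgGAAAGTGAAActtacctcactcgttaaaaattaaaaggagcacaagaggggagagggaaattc
Slfn8: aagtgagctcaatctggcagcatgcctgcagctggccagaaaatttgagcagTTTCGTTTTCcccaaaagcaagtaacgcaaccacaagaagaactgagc
Ifi213: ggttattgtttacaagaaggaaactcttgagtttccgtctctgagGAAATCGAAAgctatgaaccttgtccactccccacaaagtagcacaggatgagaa

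The type I interferon list holds antiviral effectors, their sensors and the transcription factors that drive them. All 24 members were tested and all 24 had lower mean levels in black rice, with a median log2 difference of -0.50 against 0.01 for all genes. None passed the edgeR adjustment, 16 had an unadjusted p under 0.05, 12 did not overlap between the groups and DESeq2 called 4. Without control 2, the highest control for most of them, the median was -0.31.

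Among the effectors, Oas1a, which makes the 2-5A messenger that activates RNase L, had the smallest p of the list. Its levels were 87.4, 98.4, 78.7 and 85.7 CPM against 130, 143, 114 and 117 CPM, without overlap (log2 difference -0.52, SE 0.11, edgeR adjusted p 0.46, DESeq2 0.019). Oas2, of the same enzyme family, had 92.5, 157, 149 and 146 CPM against 243, 342, 219 and 211 CPM. Black rice 1 was the lowest library for Oas2 and control 2 the highest, and the difference was -0.90 (SE 0.21, edgeR adjusted p 0.49, DESeq2 0.025). Mx2, a dynamin-like antiviral GTPase, had 12.8 to 15.3 CPM against 18.1 to 29.8 CPM, a log2 difference of -0.69 (SE 0.16, DESeq2 adjusted p 0.04). Oas copies resemble each other and the counting command set no option for reads that map to several places, so the level of each is uncertain.

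Among the transcription factors, Stat2 had 127, 143, 134 and 139 CPM in black rice and 192, 228, 164 and 181 CPM in the controls. The groups did not overlap, and the log2 difference was -0.49 (SE 0.11, edgeR adjusted p 0.49, DESeq2 0.046). Irf9, the DNA-binding partner of STAT2, had 82.0 to 86 CPM against 96.1 to 119 CPM, with a difference of -0.37. Irf7, the amplifier of interferon production, ranged from 324 to 452 CPM against 432 to 859 CPM and overlapped. The RNA sensor Ifih1 (-0.10) and the helicase-related Ddx60 (-0.09) had the smallest differences of the list.

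Genes of the interferon gamma list, which serve chemokine signalling, antigen presentation and defence inside the cell, had a median log2 difference of -0.36. Of 22, 21 were below 0, 11 had an unadjusted p under 0.05, 5 did not overlap and Gbp8 alone was above 0, at 0.07. Cxcl10, a chemokine that attracts T cells, had 3.73, 4.20, 8.59 and 4.02 CPM against 12.6, 9.27, 12.8 and 10.6 CPM. Black rice 3 was higher than its group and still below every control, and the difference was -1.14 (SE 0.27, edgeR adjusted p 0.50, DESeq2 0.02). Cxcl9, of the same chemokine group, had 6.87 to 8.86 CPM against 10.3 to 14.1 CPM. Tap1, which pumps peptides into the endoplasmic reticulum for MHC class I, had 63.3 to 71.8 CPM against 77.5 to 143 CPM. Ifng itself was near the limit of detection, at 0.0727 to 0.138 CPM against 0.139 to 0.251 CPM. The MHC class II genes, another target of this pathway, had a median of -0.01 with 0 of 10 at an unadjusted p under 0.05.

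Both following families were picked after their values were seen, so their counts describe them and support nothing further. Schlafen genes encode regulators of lymphocyte quiescence and of virus replication, and the p200 family includes DNA sensors. All 7 Schlafen genes had lower mean levels (median -0.80), 5 at an unadjusted p under 0.05, and all 11 tested of 12 p200 genes did so too (median -0.55), 8 at such a p. Slfn2 had 14.9, 27.4, 13.1 and 15.2 CPM against 44.9, 80.7, 44.2 and 37.5 CPM, and its highest black rice library stayed below its lowest control. The difference was -1.55 (SE 0.30, edgeR adjusted p 0.44, DESeq2 0.00074). Slfn8 had 1.92 to 2.92 CPM against 3.50 to 5.91 CPM (-1.09), while Slfn9 overlapped, at -0.10. Ifi213 had 0.653 to 1.32 CPM against 1.52 to 5.13 CPM (-1.6, SE 0.37, edgeR adjusted p 0.49, DESeq2 0.0077), and Aim2, the p200 gene of the inflammasome, had -0.07. Copies within both families are alike in sequence, so the share of each is uncertain.

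Markers of macrophages, cells that respond strongly to interferon, lay on the same side. Of 13, 11 had a difference below 0, 5 with an unadjusted p under 0.05 and 2 without overlap, at a median of -0.42. Adgre1, which encodes the surface protein F4/80, had 3.73 to 5.46 CPM against 5.96 to 7.58 CPM (-0.48, SE 0.16, edgeR adjusted p 0.55). The summed markers were 319 to 446 CPM in black rice and 389 to 655 CPM in the controls, and Mrc1 (0.30) and Cd163 (0.52), markers of resident macrophages, stood on the other side of 0. The part of macrophage number in the interferon values was not tested.

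Gasdermin C genes encode pore-forming proteins of gut epithelium that are known to be induced by type 2 cytokines. The family was also picked after its values were seen. Of 6 genes 5 were tested, and all 5 were below 0 with an unadjusted p under 0.05 and without overlap. Gsdmc2 had 144, 153, 173 and 174 CPM against 815, 273, 331 and 235 CPM, and Gsdmc3 had 49.9, 58.3, 52.5 and 58.7 CPM against 186, 83.6, 121 and 90.9 CPM. The black rice libraries were close together, whereas control 1 was far above the other controls. The log2 differences were -1.36 (SE 0.36) and -1.14 (SE 0.23), with edgeR adjusted p of 0.51 and 0.46, and DESeq2 gave 0.039 and 0.0073. Gsdmcl2 had 22.5 to 35.6 CPM against 37.6 to 169 CPM (-1.64), and Gsdmc, with the smallest p of the family, did not exceed 0.274 CPM in any library (-2.17, SE 0.35, edgeR adjusted p 0.40). The family's median was -1.40, and -0.83 without control 1. Ang4, an antimicrobial ribonuclease, was highest in the same library, at 123 CPM, against 8.93 to 26 CPM in the other controls and 4.93 to 7.17 CPM in black rice (-2.77, SE 0.78, edgeR adjusted p 0.52). The gasdermin C genes are near-copies, so the level of each is uncertain.

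**Figure D1:**
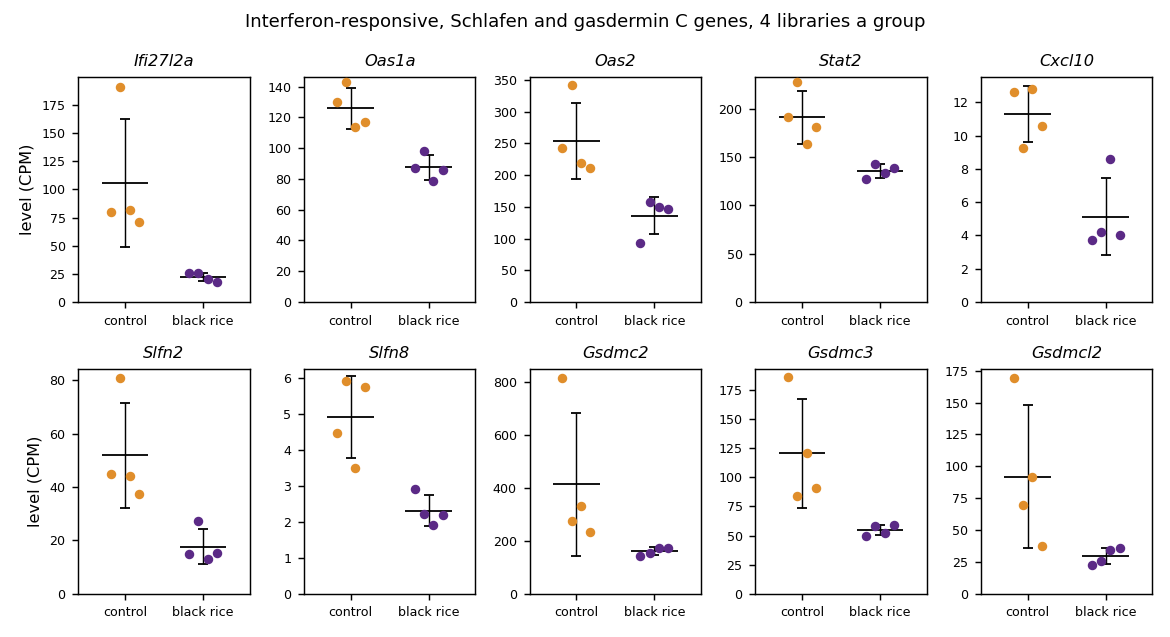
Level in CPM (vertical axes, from 0, linear) of 10 interferon-responsive, Schlafen and gasdermin C genes, with 1 point per library, the group mean as a line and the SD as error bars. In each panel the 4 black rice points lie below the 4 control points, control 2 is the high point of Ifi27l2a at 191 CPM and control 1 that of Gsdmc2 at 815 CPM. Only genes without overlap are shown, which were 2.82% of all genes tested on this side and 12 of the 24 type I interferon genes.

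On the higher side, Il33, an alarmin held in the nuclei of stromal and barrier cells, had 5.96, 4.05, 4.37 and 4.78 CPM against 2.16, 2.67, 1.98 and 2.01 CPM. No control reached the black rice libraries, and the difference was 1.12 (SE 0.18, edgeR adjusted p 0.40, DESeq2 7e-06). Zfp804a, a zinc finger gene, had 2.08 to 4.02 CPM against 0.933 to 1.09 CPM (1.57, SE 0.22, edgeR adjusted p 0.34). A730046J19Rik, a gene named only by its clone, had a difference of 1.54 (SE 0.24, edgeR adjusted p 0.40).

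Genes of the mesothelium, the outer covering of the gut, had higher mean levels in black rice. This list was made after the values were seen. All 11 members had differences above 0, 10 had an unadjusted p under 0.05, the same number did not overlap, and DESeq2 called 6, at a median of 1.17. Pkhd1l1, which encodes a large membrane protein, had 3.28, 4.14, 4.41 and 3.66 CPM against 1.09, 1.92, 1.16 and 1.24 CPM. Its lowest black rice library was well above its highest control, and the difference was 1.52 (SE 0.22, edgeR adjusted p 0.34, limma-voom 0.027). Muc16, the mucin known as CA125, had 4.55 to 6.72 CPM against 1.32 to 2.86 CPM (1.35, SE 0.26, edgeR adjusted p 0.44). Wt1, the transcription factor of mesothelium, had 2.01 to 2.27 CPM against 0.641 to 1.38 CPM (1.17, SE 0.24, edgeR adjusted p 0.46). The exception to the separation was Nkain4, at 0.32. Summed over the list, black rice had 49.5 to 56.2 CPM and the controls 16.2 to 36.0 CPM, so all these transcripts were scarce.

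Fat cell markers stood higher in the same libraries. Of 11, 10 were above 0, 6 had an unadjusted p under 0.05 and 4 did not overlap, at a median of 0.47. Plin1, the lipid droplet coat protein, had 0.739, 1.22, 0.578 and 1.5 CPM against 0.183, 0.272, 0.473 and 0.276 CPM. The groups did not overlap, and the log2 difference was 1.74 (SE 0.39, edgeR adjusted p 0.47, DESeq2 0.0082). Adipoq, the adipokine adiponectin, had 1.62 to 4.30 CPM against 0.571 to 1.46 CPM (1.36, SE 0.41, edgeR adjusted p 0.52). The summed fat markers were 214 to 241 CPM against 178 to 199 CPM. The largest parts of this sum were Pparg (means 103 and 93.1 CPM) and Plin4 (means 51.5 and 43.7 CPM), and both overlapped. The sum is therefore not a measure of the scarcer fat cell genes above. The part of attached fat and serosa in the mesothelial values, and in those of Il33, was not tested.

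Neuronal genes were another set on this side. The list of 14 enteric nerve and glia markers had 12 above 0, 3 with an unadjusted p under 0.05 and none without overlap, at a median of 0.38. That median was 0.16 without control 4, 0.19 without black rice 4 and 0.71 without control 2. Elavl4, an RNA-binding protein of neurons, had 9.61, 14.6, 20.7 and 25.1 CPM against 9.57, 10.7, 9.82 and 5.40 CPM (0.98, SE 0.31, edgeR adjusted p 0.55). Black rice 1 lay within the range of the controls. Sox10 (0.22), S100b (0.31) and Gfap (-0.34), markers of enteric glia, overlapped.

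A second neuronal list, of synapse, channel and receptor genes and made after the values were seen, had 23 of 24 above 0, 14 at an unadjusted p under 0.05 and 11 without overlap, at a median of 0.84. Its summed levels overlapped, at 155 to 306 CPM against 87.1 to 195 CPM, with control 4 the lowest. Ncam2, a neuronal adhesion molecule, had 3.21, 5.49, 6.56 and 6.53 CPM against 1.92, 2.26, 2.28 and 1.75 CPM. All black rice libraries were above the controls, and the difference was 1.41 (SE 0.24, edgeR adjusted p 0.44, DESeq2 6.5e-05). Pclo, a scaffold of the presynaptic zone, had 5.21 to 8.33 CPM against 3.26 to 3.80 CPM (0.99, SE 0.17, edgeR adjusted p 0.44). Ntrk3, the neurotrophin-3 receptor, had 7.53 to 15.2 CPM against 4.11 to 5.51 CPM (1.13, SE 0.22, edgeR adjusted p 0.44). Smooth muscle markers, from the layer that holds these nerves, had a median of -0.08, with sums of 8780 to 19700 CPM in black rice and 2970 to 28800 CPM in the controls.

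**Figure D2:**
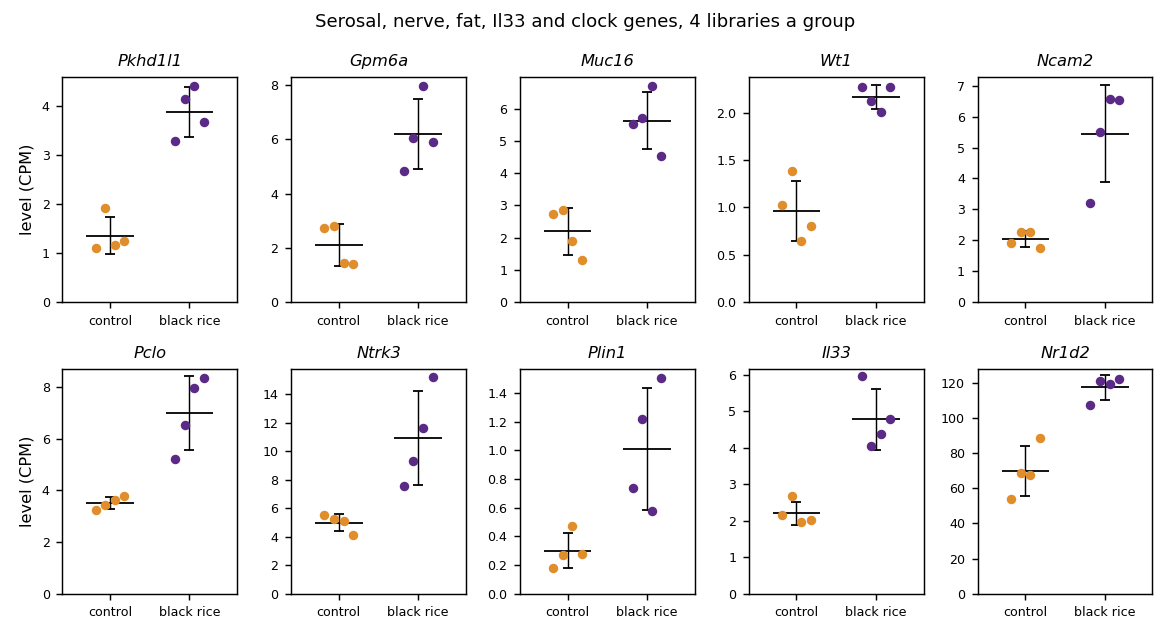
Level in CPM (vertical axes, from 0, linear) of 10 genes of the serosa, nerves, fat and clock and of Il33, with 1 point per library, the group mean as a line and the SD as error bars. In each panel the 4 black rice points lie above the 4 control points, as with 3.28 CPM or more against 1.92 CPM or less for Pkhd1l1. Only genes without overlap are shown, which were 2.67% of all genes tested on this side.

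Clock genes differed in both directions. The circadian clock runs on the activators Arntl, Clock and Npas2, which drive Per, Cry and Nr1d genes and output genes such as Dbp and Tef. The products of the Per, Cry and Nr1d genes in turn repress the activators. Of 18 genes, 7 were on the higher side and 4 on the lower side at an unadjusted p under 0.05, and the median was 0.39. Nr1d2, a repressor of Arntl, had 107, 121, 119 and 122 CPM against 53.7, 68.9, 67.5 and 88.5 CPM. Control 4 was the highest control and still below black rice (0.75, SE 0.14, edgeR adjusted p 0.44, DESeq2 0.01). Tef had 83.4 to 114 CPM against 31.4 to 76.1 CPM (0.77) and Per3 had 28.3 to 39.5 CPM against 9.76 to 24.5 CPM (0.81). Arntl had 23.9 to 32.6 CPM against 31.2 to 64.8 CPM (-0.74), Npas2 had a difference of -0.59 and Cry1 one of -0.73. Nfil3, an output repressor, had 1.99 to 4.36 CPM against 4.55 to 8.57 CPM (-0.88). The labels give no collection time, so the group and the hour of dissection cannot be told apart. The E-box CACGTG, which the activators bind, was in 5 of the 15 clock promoters of the RefSeq table and in 8.09% of all its genes.

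Epithelial genes leaned to the lower side by small amounts. All 12 markers of gut epithelium were below 0, 4 had an unadjusted p under 0.05 and the same number did not overlap, at a median of -0.28. Elf3, an epithelial transcription factor, had 312, 302, 286 and 304 CPM against 414, 397, 441 and 366 CPM (-0.43, SE 0.10, edgeR adjusted p 0.49, DESeq2 0.0097). The groups were separate and tight. The markers summed to 13800 to 16900 CPM in black rice and 17800 to 19900 CPM in the controls, and this stands beside each epithelial result here. Tight junction genes had a median of -0.20, with 4 of 16 above 0. At an unadjusted p under 0.05 there were 2 on the lower side and 1 on the higher side. The 2 were Cldn4, with 21.9 to 34.2 CPM against 28.6 to 61.9 CPM (-0.72, SE 0.22, edgeR adjusted p 0.55), and Cldn7 (-0.28, SE 0.11, edgeR adjusted p 0.61). The 1 was the scarce Cldn1, with 1.02 to 1.6 CPM against 0.619 to 0.961 CPM (0.71, SE 0.22, edgeR adjusted p 0.53). Ocln, the junction protein occludin, had 0.05.

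Genes of cholesterol synthesis and uptake, which the factor SREBP2 controls, had 20 of 23 below 0, 7 at an unadjusted p under 0.05 and 6 without overlap, at a median of -0.23. Srebf2, the gene of that factor, had 167, 160, 148 and 160 CPM against 202, 208, 180 and 195 CPM. Its groups did not overlap (-0.31, SE 0.09, edgeR adjusted p 0.52). Nuclear genes of the respiratory chain had 22 of 25 tested below 0, though by a median of -0.13, and Ndufv1 of complex I had the smallest p (-0.31, SE 0.11, edgeR adjusted p 0.59). The 13 respiratory genes of mitochondrial DNA had a median of 0.09, with 11 above 0.

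Of 12 tuft cell markers, 9 were below 0, 5 had an unadjusted p under 0.05 on the lower side and 2 did not overlap, at a median of -0.26. Those 2 were Trpm5, the taste-type channel of tuft cells, with 10.7 to 11.5 CPM against 12.7 to 16.8 CPM (-0.40, SE 0.11, edgeR adjusted p 0.52), and Alox5, the leukotriene enzyme (-0.50, SE 0.17, edgeR adjusted p 0.55). The tuft cell marker Dclk1 had 0.21 and overlapped. Il25, the cytokine these cells release, had no more than 0.25 CPM in any library. Goblet cell genes had a median of 0.08 and 0 of 14 at an unadjusted p under 0.05, with Muc2 at 0.08 (SE 0.25). Retnlb, a goblet cell antimicrobial protein, had the smallest p of the list, with 183 to 365 CPM against 249 to 1030 CPM (-0.87, SE 0.43, edgeR adjusted p 0.65). Of 20 antimicrobial and microbe-responsive genes tested, 14 were below 0 and 4 had an unadjusted p under 0.05, and Reg3g ranged from 13.1 to 139 CPM in black rice and from 14.5 to 98.3 CPM in the controls. The hormone Pyy of enteroendocrine cells had 29.4 to 44.9 CPM against 41.2 to 85.7 CPM (-0.76, SE 0.23, edgeR adjusted p 0.52).

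The groups overlapped for every lymphocyte gene listed. All 18 B and plasma cell genes had differences above 0, and 0 had an unadjusted p under 0.05. Igha, the constant part of IgA, had 1250, 1090, 473 and 512 CPM against 957, 572, 259 and 602 CPM (0.48, SE 0.43). Cr2, the complement receptor of follicular B cells, had 0.126 to 2.36 CPM against 0.320 to 0.671 CPM (1.25, SE 0.65, edgeR adjusted p 0.67). The median of 0.61 was 0.20 without black rice 1, 0.38 without control 3 and 0.92 without control 1. T and NK cell genes had a median of 0.18, and of 18 only Gzma, a cytotoxic granule protease, had an unadjusted p under 0.05. Gzma had 4.08 to 20.7 CPM against 1.75 to 6.71 CPM (1.71, SE 0.59, edgeR adjusted p 0.56).

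Pathways often studied with polyphenols and gut tumours had medians near 0. The aryl hydrocarbon receptor senses plant and bacterial indoles and switches on Cyp1a1 and Ahrr. Of its 10 listed genes 8 were tested, 0 had an unadjusted p under 0.05 and the median was 0.06. Cyp1a1 had at most 0.238 CPM in any library and was too low to be tested. Ahr had 0.05 (SE 0.14), Ahrr -0.12 (SE 0.39), Tiparp -0.13 (SE 0.18) and Cyp1b1 0.41 (SE 0.34). Tryptophan and serotonin genes had a median of 0.02 over 16, and Ido1, the enzyme that opens the kynurenine route, overlapped widely, at 7.69 to 41.3 CPM against 4.16 to 22.8 CPM. Xenobiotic enzymes had 18 of 19 above 0 by a median of 0.13, and Gsta3, a glutathione transferase, had 11 to 14.5 CPM against 8.03 to 9.82 CPM (0.48, SE 0.13, edgeR adjusted p 0.51).

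Cell cycle genes had a median of -0.04 over 26, with 1 at an unadjusted p under 0.05, the helicase subunit Mcm2 (-0.33, SE 0.14, edgeR adjusted p 0.62). Mki67, a marker of dividing cells, had 204, 214, 205 and 142 CPM against 175, 107, 158 and 215 CPM (0.23, SE 0.21), and its groups overlapped. The Wnt pathway, which maintains crypt stem cells and is switched on in most colorectal tumours, had a median of -0.07 over 17 genes. Of these, 12 were below 0 and 5 above, and 2, both below, had an unadjusted p under 0.05. Lgr5, the stem cell receptor, had 6.76 to 7.93 CPM against 4.73 to 11.4 CPM (0.01, SE 0.25). Axin2, a feedback target, had -0.27 (SE 0.14), and the stem cell factor Ascl2 had the smallest p, with 2.05 to 3.95 CPM against 3.66 to 5.28 CPM (-0.62, SE 0.23, edgeR adjusted p 0.59). The other Wnt list gene at such a p was Myc, with 15.7 to 21.5 CPM against 20.6 to 28.9 CPM (-0.37, SE 0.14, edgeR adjusted p 0.59). With SEs of this size, the values do not show that the groups are alike.

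**Figure D3:**
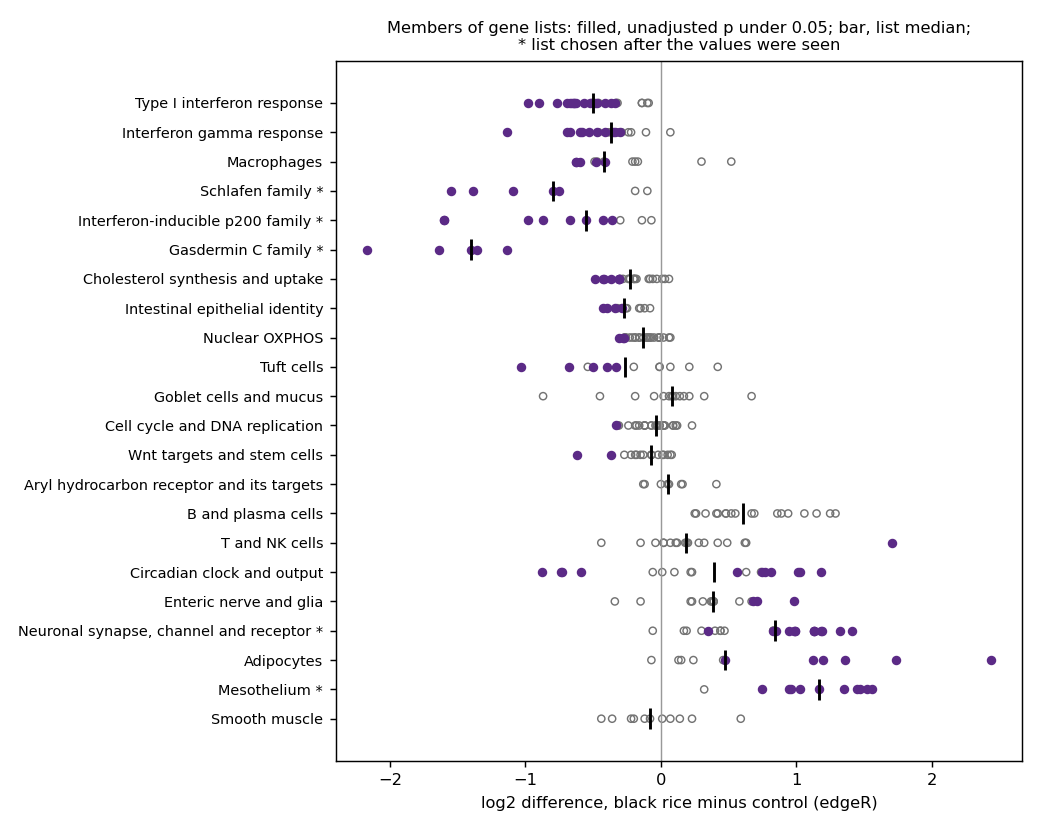
Log2 difference, black rice minus control (horizontal axis), of every tested member of 22 gene lists (rows), with filled points at an unadjusted p under 0.05 and a bar at the list's median. The type I interferon points all lie left of 0 with a median of -0.50, the mesothelium points all lie right of it with a median of 1.17, and the goblet cell and cell cycle lists straddle 0.

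The study's other tables allow a test of whether these differences were particular to the FMT table. The Apc table (Apc being the tumour suppressor gene lost in most colorectal cancers) gave 12 libraries of black rice and control diet, 3 for each diet and code (F or M), and the AOM table gave 6 of M code, AOM being a common abbreviation of the colon carcinogen azoxymethane that the labels do not spell out. One edgeR fit over 26 libraries and 22722 genes tested each difference between tables, with the F and M codes of the Apc table averaged. The 6 F-coded Apc libraries had Xist at 1300 to 2270 CPM and summed Y-linked genes at 0 to 0.396 CPM, and the 6 M-coded ones had Xist at 0.658 CPM or less and Y-linked genes at 136 to 254 CPM, so the codes matched sex in both diets. Against the Apc table, 0 genes were more positive and 0 more negative in the FMT table (0% each), and 368 (1.62%) and 340 (1.5%) were so at an unadjusted p under 0.05, or 3.12% in either direction, while limma-voom called 3 and 2. Against the AOM table, 90 genes were more positive (0.396%) and 35 more negative (0.154%). Both tests use the same FMT libraries, and the table and everything that differed between the experiments cannot be told apart.

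Interferon genes stood on opposite sides in the FMT and Apc tables. The type I list had a median of -0.49 in the FMT table, 0.51 in the Apc table and 0.01 in the AOM table, and the interferon gamma list had -0.35, 0.71 and -0.47. For Ifi27l2a the differences were -2.24, 0.29 and -0.03, and the FMT minus Apc value was -2.53 (SE 0.50, edgeR adjusted p 0.24). Pla2g4c, a phospholipase gene, had -4.01 in the FMT table and 3.58 in the Apc table, a gap of -7.59 (SE 1.33, edgeR adjusted p 0.21), with 200 CPM in control 1 against 9.56 to 12.9 CPM in the other controls. On the other side, the immunoglobulin segment Igkv15-103 (gap 5.46) and Spaca3, a lysozyme-like gene (gap 4.67), had edgeR adjusted p of 0.21. B and plasma cell genes had medians of 0.62, -1.17 and -0.65 in the FMT, Apc and AOM tables. None of these gaps to the Apc table passed the test.

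The FMT libraries had the male pattern, so the gap was also taken to the M-coded Apc libraries alone, an alternative added with the results in view. Then 0 genes were more positive (0%) and 10 more negative (0.044%) in the FMT table. Leaving out 1 FMT or M-coded Apc library gave 0 to 1 and 0 to 20, with 0 and 0 without any 1 black rice library of the FMT table or without control diet M Apc 1. Pla2g4c was among the 10 (gap -10.69, SE 1.69, edgeR adjusted p 0.019, and 0.011 to 0.14 with 1 library left out), as were the cholesterol synthesis enzymes Lss (-0.05 in the FMT table, 2.11 in the M-coded Apc libraries) and Fdps (-0.30 and 2.09). In the M-coded and F-coded Apc libraries the median was 0.64 and 0.39 for the type I interferon list, 0.77 and 0.46 for the interferon gamma list, and 0.66 and 1.8 for the mesothelial list. B and plasma cell genes had -0.07 in the M-coded and -2.16 in the F-coded libraries, and gasdermin C genes 1.15 and 0.17. Cholesterol synthesis and uptake genes had 1.38 in the M-coded libraries (23 of 23 above 0) and -0.75 in the F-coded ones (0 of 23 above 0). Their median in the FMT table was -0.22. Whether the codes differed in these lists was not tested.

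Mesothelial genes had medians of 1.18 in the FMT table, 1.04 in the Apc table and 0.15 in the AOM table. Pkhd1l1 was 1.53, 0.72 and -0.94, and its FMT minus AOM difference passed the test, at 2.47 (SE 0.49, edgeR adjusted p 0.032). Il33 did so too, at 3.44 (SE 0.65, edgeR adjusted p 0.029), with 1.13 in the FMT table and -2.31 in the AOM table. Clock genes had a median on the same side in all 3 tables, at 0.41, 0.32 and 0.40. Of the 18 members, 11 were above 0 in the Apc table and 12 in the AOM table. The list holds activators and the genes that repress them, so its median does not describe 1 state of the clock. Gasdermin C genes had -1.39, 0.42 and -0.36.

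Most of the named genes past the test against the AOM table had small differences in the FMT table. Within the AOM table itself 286 genes (1.26%) were higher and 490 (2.16%) lower in black rice, against 0 and 0 in the FMT table and, in the Apc table, 0 higher and 1 lower (0.0044%). Notum, a Wnt feedback inhibitor secreted by Wnt-active epithelium, had -0.01 in the FMT table and -7.18 in the AOM table, a gap of 7.17 (SE 0.99, edgeR adjusted p 0.0039), and the Wnt list had medians of -0.07 and -1.36. Alb, the plasma protein albumin, had -0.09 and -5.51 (gap 5.42, SE 0.70, edgeR adjusted p 0.0029). The list of hepatocyte markers, which holds Alb, had medians of -0.03 and -1.72, with 2 of 10 above 0 in the AOM table. Whether liver tissue was carried into these AOM libraries was not tested. The processed pseudogene Gm11488, whose reads cannot be told apart from those of its parent gene, had 0.20 and -3.55 (gap 3.75, edgeR adjusted p 0.0041). On the negative side, Hpcal1, a neuronal calcium sensor, had -0.32 and 0.75 (gap -1.07, SE 0.17, edgeR adjusted p 0.013). Pias4, a SUMO ligase that restrains STAT signalling, had -0.26 and 0.60 (gap -0.86, edgeR adjusted p 0.022), and Il17re, a receptor for IL-17C in epithelium, had -0.05 and 1.32 (gap -1.37, edgeR adjusted p 0.029). The counts of 90 and 35 shrank to 19 and 2 without black rice 2 or black rice 3, 10 and 1 without black rice 4, 17 and 4 without control 1, 23 and 2 without control 2, 21 and 2 without control 3, and 43 and 11 without control 4.

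**Figure D4:**
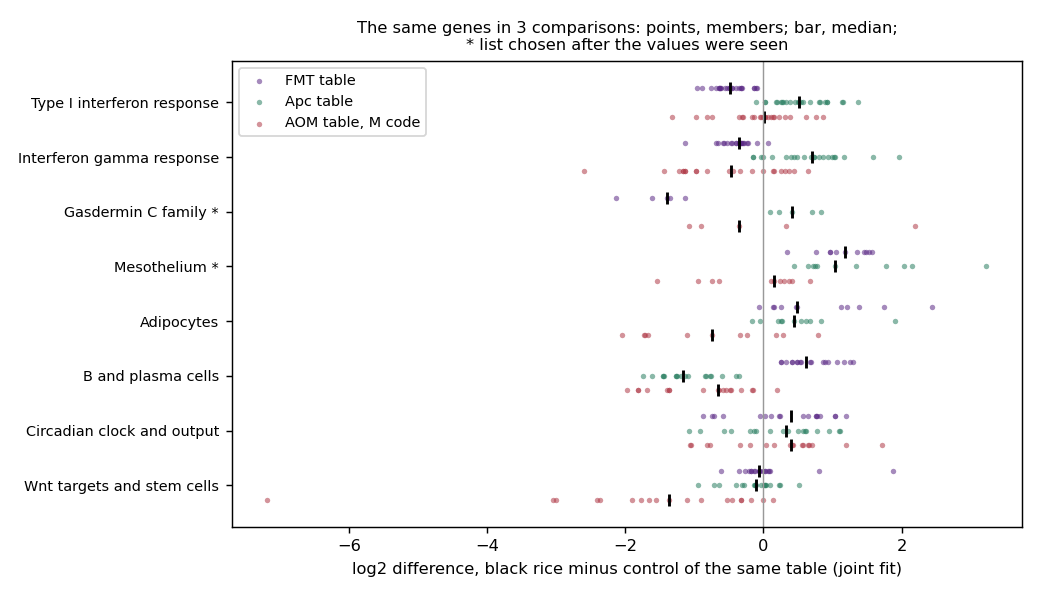
Log2 difference, black rice minus the control of the same table (horizontal axis, joint fit of 26 libraries), of the members of 8 gene lists (rows) in the FMT table, the Apc table and the M-coded AOM table (colours), with a bar at each median. The type I interferon medians are -0.49, 0.51 and 0.01, the mesothelium medians 1.18, 1.04 and 0.15, and the clock medians 0.41, 0.32 and 0.40.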

How the data were processed

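Bulk RNA sequencing libraries of mouse intestinal tract (8 of the FMT table, 4 a group) were analysed, with 12 of the Apc table and 6 of the AOM table as comparison. Per the labels' protocols, RNA was extracted with Trizol, captured with oligo(dT) beads and sequenced on DNBSEQ after PCR, with no molecular identifiers. The authors deposited raw whole-number counts per gene. Per the file headers, featureCounts 2.0.1 counted read pairs over exons by gene with Ensembl 104 on GRCm39, with no strand option and no option for multi-mapping reads, so overlapping genes, antisense genes and near-identical copies cannot be told apart. The submitters' processing notes also name FastQC, fastp, HISAT2, SAMtools and Subread, with versions not given. Of 55416 identifiers 52083 had a symbol.

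Totals were 66610853 to 91051239 counts. Here, in R 4.3.3, edgeR 4.0.16 (TMM, filterByExpr, quasi-likelihood F test, two-sided, Benjamini-Hochberg adjusted p under 0.05) was run on the 8 libraries as the main test, and as 1 fit over 26 libraries for differences between tables. Levels (CPM) are counts relative to the TMM-scaled library size. The SE of a log2 difference is its size divided by the square root of F. DESeq2 1.42.0 and limma-voom (limma 3.58.1) with quality weights, other scaling and filters, a replicate block and leaving out each library were alternatives. Leaving out black rice 1 with control 4, a smooth muscle covariate, and the M-coded Apc libraries alone were added after seeing the data. Black rice 2 stayed in the fit without black rice 1 and control 4. The fitting code was tested on simulated data. No 2 libraries held identical counts. Same-numbered libraries did not all deviate together, and the numbers were not used as pairs in the main test. This check cannot exclude a shared batch.

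The comparison, the 47 gene lists and the naming rule were chosen with earlier results of these data known, and 5 further lists (mesothelium, gasdermin C, Schlafen, p200 and neuronal synapse genes) were added after the values were seen. By the rule, where under 6 genes passed in a direction the 5 with the smallest p were named as not passing, with the member of smallest p in each list, 11 fixed genes, and the 3 smallest p past the threshold in differences between tables. Other named genes were chosen after their values were seen, and some genes the rule names are not reported here. WT libraries and the F-coded AOM libraries were not used. Promoter sequences came from RefSeq, GRCm38.p6.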

Additional observations from a re-analysis of the deposited data

Results flagged for a closer look

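In 17 of 262 groups of 4 libraries examined, 1 library stood far from the other 3, and chance alone gives about 1 in 20. Among interferon-related genes these were Ifi27l2a in control 2 (191 CPM, others 71.2 to 81.5), Slfn2 in black rice 2 (27.4 CPM, others 13.1 to 15.2), Cxcl10 in black rice 3 (8.59 CPM, others 3.73 to 4.20), Ifi207 in black rice 3 (2.98 CPM, others 2.75 to 2.78) and Mndal in black rice 3 (7.69 CPM, others 9.49 to 9.82). Control 1 stood apart in 4 genes of the epithelium. It had 815 CPM of Gsdmc2 (others 235 to 331), 1460 CPM of Gsdmc4 (others 320 to 448), 123 CPM of Ang4 (others 8.93 to 26) and 200 CPM of Pla2g4c (others 9.56 to 12.9). The cause of these values was not tested.

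Single libraries also stood apart for the mesothelial genes Upk3b (black rice 1, 13.6 CPM, others 11 to 11.3), Bnc1 (black rice 3, 1.57 CPM, others 1.31 to 1.35) and Nkain4 (black rice 4, 2.16 CPM, others 1.13 to 1.28). Black rice 4 had 8.33 CPM of the opioid receptor gene Oprk1 (others 4.48 to 4.95) and 142 CPM of Mki67 (others 204 to 214). Fam221a had 5.51 CPM in black rice 2 (others 4.76 to 4.86), Cyp1b1 0.571 CPM in control 3 (others 0.331 to 0.366) and Ndufv1 124 CPM in control 2 (others 98.3 to 102).

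The black rice difference of 10 named genes differed between the FMT table and the M-coded AOM table (joint edgeR fit). The FMT minus AOM value was 2.47 for Pkhd1l1 (adjusted p 0.032), 3.44 for Il33 (0.029), 6.71 for Lyz1 (0.031), 6.08 for Onecut2 (0.036), 5.42 for Alb (0.0029), 7.17 for Notum (0.0039) and 3.75 for Gm11488 (0.0041). It was -1.07 for Hpcal1 (0.013), -0.86 for Pias4 (0.022) and -1.37 for Il17re (0.029). Lyz1, a lysozyme of Paneth cells, was 0.52 in the FMT table and -6.19 in the AOM table, and Onecut2, a factor of proximal gut, was 0.70 and -5.38.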

How the results depend on the processing

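The count of 0 genes each way held under the RLE scaling, both other filters, the joint fit, the smooth muscle covariate and the set without black rice 1 and control 4. DESeq2 gave 77 higher and 42 lower and limma-voom 1 and 1. Leaving out 1 library gave 0 higher throughout and 0 to 1 lower, the 1 being Ifi27l2a without control 2. Genes at an unadjusted p under 0.05 numbered 1653 with all libraries, 788 under the replicate block (0 and 0 called), 3553 with the smooth muscle covariate, 2381 without black rice 1 and control 4, and 1094 to 2324 without 1 library. The correlations of same-numbered libraries were -0.11, -0.59, 0.45 and -0.60, and those of differently numbered ones -0.45 to 0.57. With spreads this wide they cannot tell whether same-numbered libraries shared a batch. For FMT minus Apc, limma-voom gave 3 and 2, the M-coded Apc libraries alone 0 and 10, the replicate block 0 and 0, and leaving out 1 library 0 and 0. For FMT minus AOM, limma-voom gave 489 and 491, RLE 91 and 51, the replicate block 72 and 26, and leaving out 1 library 10 to 93 and 1 to 46. The cause of these shifts was not tested.

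The named genes whose difference changed sign had an edgeR unadjusted p of 0.23 or more with all libraries. Leaving out 1 library gave ranges of -0.05 to 0.73 for Lyz1, -0.09 to 0.63 for H2-Ob, -0.42 to 0.24 for Ahrr, -0.23 to 0.06 for Tiparp, -0.05 to 0.11 for Ahr and -0.13 to 0.33 for Lgr5. The ranges were -0.41 to 0.57 for Reg3g, -0.06 to 0.33 for Muc2, -0.09 to 0.17 for Ocln, -0.26 to 0.24 for Alb, -0.17 to 0.22 for Notum and -0.14 to 0.01 for Il17re. Without black rice 1 and control 4 together, H2-Ob was -0.11 and Reg3g -0.04. Under limma-voom Ahr was -0.01, Alb 0.09 and Gm11488 -0.02. At these totals 1 CPM stands for about 66.6 to 91.1 counts, so levels under 0.1 CPM, as in Gsdmc and Ifng, rest on few counts, and elsewhere the 4 libraries a group limit the precision.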

Other observations

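Immediate early and heat shock genes had mostly negative differences in black rice. Of 12 immediate early genes, which respond within minutes to stimulation and to tissue handling, 11 had differences below 0 and 2 had an unadjusted p under 0.05, at a median of -0.31. Fosb had 3.37 to 4.31 CPM against 4.51 to 6.31 CPM (-0.50, SE 0.16, edgeR adjusted p 0.55). Of 8 heat shock genes, 7 were below 0 and 3 had an unadjusted p under 0.05, and the co-chaperone Dnajb1 had 42.6 to 49.8 CPM against 53.0 to 70.0 CPM (-0.37, SE 0.12, edgeR adjusted p 0.54). The 16 genes of the unfolded protein and integrated stress response lay on both sides of 0, with 6 above, 10 below, 1 at an unadjusted p under 0.05 and a median of -0.07. That 1 was Atf3, a stress-induced transcription factor, which had 26.2 to 37.2 CPM against 33.7 to 64.7 CPM (-0.67, SE 0.20, edgeR adjusted p 0.52), while the chaperone genes Dnajb9 and Hspa5 had 0.24 and 0.19.

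Chemokine and cytokine genes were mostly scarce. Ccl2, which recruits monocytes, had 0.356 to 0.528 CPM against 0.750 to 1.05 CPM, without overlap (-0.97, SE 0.21, edgeR adjusted p 0.47, DESeq2 0.024). Il1b had 0.968 to 1.96 CPM against 1.39 to 4.19 CPM (-0.84, SE 0.37, edgeR adjusted p 0.62). The neutrophil genes S100a8 and S100a9 did not exceed 0.0828 CPM in any library. Fmo2, a flavin-containing monooxygenase and chosen here after its values were seen, had 35.2, 31.4, 48.6 and 42.7 CPM against 18.4, 23.6, 14.3 and 16.4 CPM (1.12, SE 0.19, edgeR adjusted p 0.40, DESeq2 0.00019).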
